A study of Mus musculus with 49 samples.

Results

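Spon2, Angptl4, Foxs1, Polg, Pgap1 and Ptprj are 6 of the 39179 genes counted in CT26 tumours, and none of them belongs to the circadian clock. They were chosen from these same libraries: the difference between tumours given anti-PD-1 plus celecoxib (called the combination here) and tumours given anti-PD-1 alone remained past an adjusted p of 0.05 after any 1 tumour of either group was left out. Values of that contrast are therefore given as a description, without a test. All 6 were found by symbol, each in 1 row of the count table, and all 6 were among the 13726 genes that passed the filter on low counts.

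CT26 is a mouse colorectal carcinoma cell line, and the tumours were grown in Balb/c mice with no genetic change named in the labels. Treatment began 7 days after the cells were injected and lasted 7 days. There were 9 vehicle tumours (a solution of DMSO, PEG400 and water), 7 tumours given celecoxib, a cyclooxygenase-2 inhibitor, at 30 mg/kg daily, 17 given anti-PD-1, an antibody that blocks a T cell inhibitory receptor, in 2 doses of 200 µg, and 16 given both. The labels mark each tumour R or NR and do not define the marks: all vehicle and celecoxib tumours are NR, 4 of 17 anti-PD-1 tumours are R, and 12 of 16 combination tumours are R. The tissue label gives day 7 after treatment and the extraction protocol gives day 4, a conflict that could not be settled. Nothing states that each tumour came from its own mouse, so a p-value here reflects only how these samples vary.

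The products act in different compartments. Spon2 encodes spondin 2, a secreted matrix protein. Angptl4 encodes a secreted inhibitor of lipoprotein lipase and is a target of PPAR nuclear receptors and of hypoxia. Foxs1 is a forkhead transcription factor known from pericytes and perivascular cells. Polg encodes the catalytic subunit of the polymerase that copies mitochondrial DNA. Pgap1 removes an acyl chain from newly made GPI anchors, the lipid tails that hold some proteins on the cell surface. Ptprj, also called CD148 or DEP-1, is a receptor-type tyrosine phosphatase of leukocytes, endothelium and epithelium. In bulk tumour RNA, fewer cells of a type and less RNA per cell cannot be told apart.

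Each library was a 3′ mRNA library with 4251251 to 13671294 counts (median 7670623). Median counts were 294 for Spon2, 497 for Angptl4, 281 for Polg, 145 for Pgap1, 67 for Ptprj and 35 for Foxs1, so Foxs1 and Ptprj carry the widest counting error. Levels below are CPM, a gene's count relative to its library total after TMM scaling. Of 12 epithelial markers, 4 had a median above 1 CPM; Krt20 averaged 52.1 CPM and Krt18 14.5 CPM, while Cdx2, an intestinal transcription factor, had no count in 48 of 49 libraries. Transcripts of skeletal muscle (list mean over 3 log2 CPM) or of skin or fat (over 5) were high in 13 libraries: 1 vehicle, 2 celecoxib, 5 anti-PD-1 and 5 combination.

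Spon2, Foxs1 and Angptl4 were high with anti-PD-1 alone and lay near the vehicle level in the combination. Spon2 ranged from 15.9 to 48.6 CPM in vehicle tumours (median 27.8), from 10.8 to 40.7 with celecoxib (median 30.5), from 35.0 to 120 with anti-PD-1 (median 73.5) and from 14.3 to 55.1 in the combination (median 34.4). The anti-PD-1 tumours stood above the others: 14 of 17 exceeded every vehicle tumour, all 16 combination tumours lay below the anti-PD-1 median, and 8 of them lay below every anti-PD-1 tumour. Group means were 30.8 ± 11.9 (SD, n = 9), 28.8 ± 9.55 (n = 7), 72.6 ± 21.1 (n = 17) and 34.2 ± 11.4 CPM (n = 16) in the same order. Vehicle, celecoxib and combination means thus differed by less than their SDs. The gene lies on chromosome 5 at 33198184-33218455 (GRCm38, minus strand; identifier ENSMUSG00000037379).

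Foxs1 was also highest with anti-PD-1 alone, at a lower depth. It ranged from 1.81 to 7.75 CPM in vehicle (median 3.03), 1.65 to 5.47 with celecoxib (median 3.61), 3.22 to 15.6 with anti-PD-1 (median 5.90) and 1.52 to 6.54 in the combination (median 3.31). All 17 anti-PD-1 tumours lay above the vehicle median, but 5 exceeded every vehicle tumour. Of 16 combination tumours, 15 lay below the anti-PD-1 median and 8 below every anti-PD-1 tumour. The means were 3.75 ± 2.04, 3.60 ± 1.19, 7.21 ± 3.28 and 3.41 ± 1.46 CPM. Foxs1 is a short gene of a single annotated transcript on chromosome 2 at 152931898-152933208 (minus strand; ENSMUSG00000074676).

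Angptl4 spread more widely with anti-PD-1. It ranged from 37.9 to 86.1 CPM in vehicle (median 67.1), 31.3 to 88.4 with celecoxib (median 63.7), 33.4 to 148 with anti-PD-1 (median 105) and 35.1 to 81.2 in the combination (median 46.02). All 16 combination tumours lay below the anti-PD-1 median, but none lay below every anti-PD-1 tumour, because 1 anti-PD-1 tumour was at 33.4 CPM. Of the combination tumours 14 also lay below the vehicle median. Means were 64.7 ± 14.2, 60.0 ± 21.5, 95.6 ± 34.5 and 51.5 ± 13.3 CPM. Angptl4 lies on chromosome 17 at 33773750-33781830 (minus strand; ENSMUSG00000002289).

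**Figure D1:**
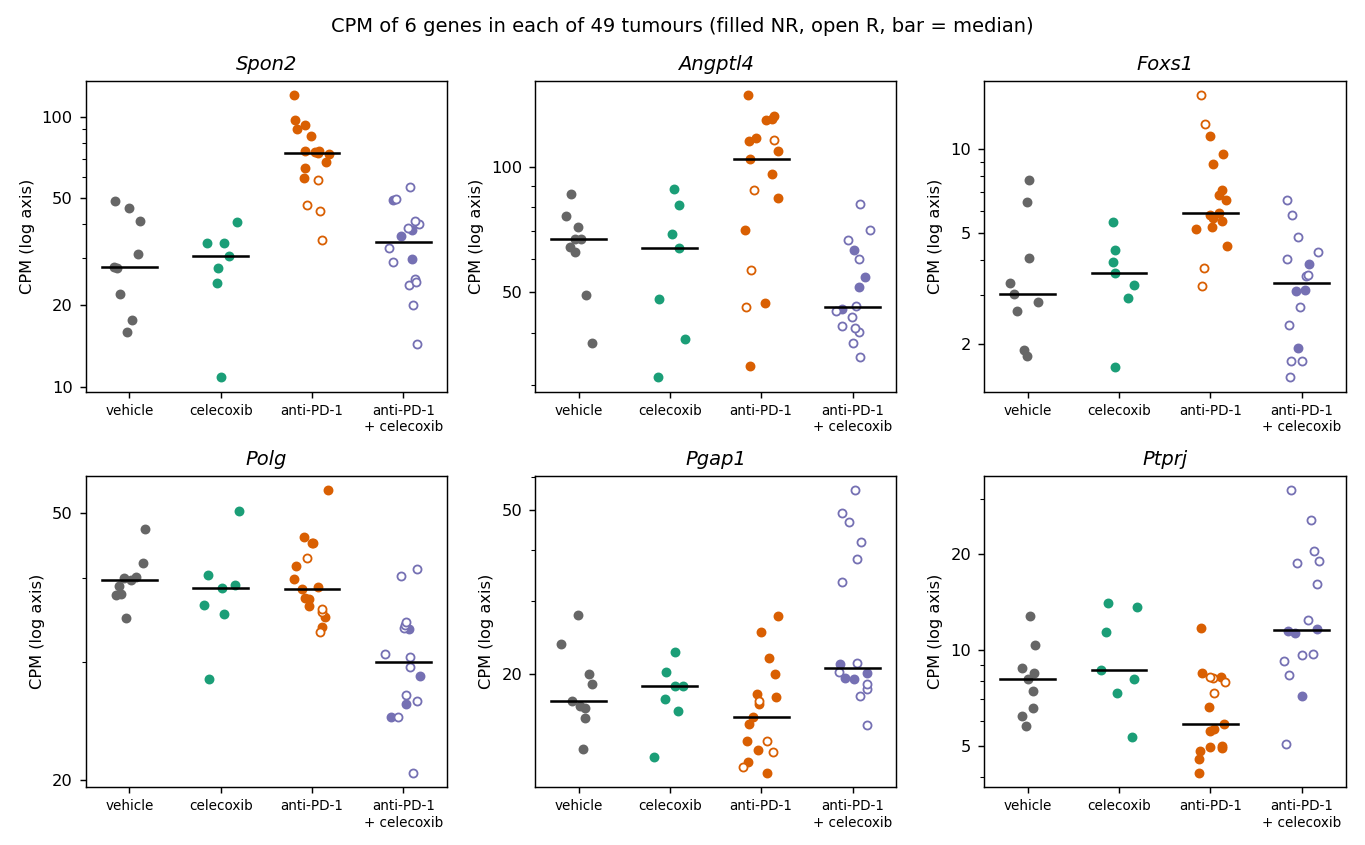
CPM (log axis) of the 6 genes in each of 49 tumours by treatment; filled points are NR tumours, open points R tumours, and bars medians. Spon2, Angptl4 and Foxs1 stand highest with anti-PD-1 alone, while Polg is lowest and Pgap1 and Ptprj reach their highest values in the combination.

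Polg, Pgap1 and Ptprj had another pattern, in which the means of the combination lay apart. With anti-PD-1 alone, the means of Polg and Pgap1 were near or a little below vehicle, and that of Ptprj was lower than vehicle. Polg varied least of the 6 genes within treatments (SD 0.216 on the log2 scale, against 0.451 to 0.589 for the others). It ranged from 34.9 to 47.3 CPM in vehicle (median 39.7), 28.3 to 50.2 with celecoxib (median 38.7), 33.2 to 53.95 with anti-PD-1 (median 38.4) and 20.5 to 41.2 in the combination (median 30.0). Of the 16 combination tumours 10 lay below every anti-PD-1 tumour, the highest such number among the 6 genes. The means were 39.8 ± 3.45, 38.3 ± 6.58, 39.7 ± 5.42 and 30.3 ± 5.64 CPM, so vehicle, celecoxib and anti-PD-1 did not differ beyond their SDs. Polg lies on chromosome 7 at 79446231-79466362 (minus strand; ENSMUSG00000039176) and overlaps the opposite-strand gene Fanci, a DNA repair gene, over 4034 bases at its 3′ end. The sources used here do not say whether counting used strand. Fanci had a median count of 42 against 281 for Polg, and its own combination against anti-PD-1 change was -0.16 on the log2 scale (SE 0.19).

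Pgap1 in the combination lay in a lower and a higher set of tumours. It ranged from 13.2 to 27.7 CPM in vehicle (median 17.2), 12.6 to 22.6 with celecoxib (median 18.7), 11.5 to 27.7 with anti-PD-1 (median 15.7) and 15.1 to 55.7 in the combination (median 20.7). Of the combination tumours 10 lay between 15.1 and 21.3 CPM, within the range of the vehicle tumours, and the other 6 lay between 33.4 and 55.7 CPM, above every other tumour of the study. Those 6 were all R, in a group where 12 of 16 tumours were R. The means were 18.9 ± 4.45, 18.1 ± 3.14, 16.8 ± 4.70 and 28.5 ± 13.4 CPM, and the combination SD reflects this spread. Pgap1 lies on chromosome 1 at 54472994-54557684 (minus strand; ENSMUSG00000073678).

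Ptprj ranged from 5.78 to 12.8 CPM in vehicle (median 8.13), 5.32 to 14.1 with celecoxib (median 8.68), 4.12 to 11.8 with anti-PD-1 (median 5.84) and 5.08 to 31.8 in the combination (median 11.5). Of 16 combination tumours 15 lay above the anti-PD-1 median and 7 above every anti-PD-1 tumour. Of 17 anti-PD-1 tumours 12 lay below the vehicle median and 8 below every vehicle tumour. The share of all genes that separate these groups as far was not counted. The fitted log2 change of Ptprj between those 2 groups was -0.33 (SE 0.22), within 2 SE of 0 and without a test here. The means were 8.28 ± 2.22, 9.81 ± 3.34, 6.60 ± 2.01 and 14.3 ± 7.25 CPM. The 6 combination tumours highest for Ptprj and the 6 highest for Pgap1 shared 5 tumours. Ptprj lies on chromosome 2 at 90429754-90580647 (minus strand; ENSMUSG00000025314), and an antisense gene inside it, 4933423P22Rik, had a median count of 0.

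Pgap1 and Ptprj moved together across tumours. The DNA just upstream of their RefSeq starts (GRCm38.p6) is shown 5′ to 3′ along each gene. GC boxes (GGGCGG or its reverse complement CCGCCC) are in capitals. Whether these sequences have a part in the shared movement was not tested. The Pgap1 window is chr1:54557685-54557934 on the minus strand. The Ptprj window, the nearest of the 2 that RefSeq lists to the annotated gene start, is chr2:90580648-90580845 on the minus strand and leaves out the last 52 bases before the RefSeq start, which GENCODE places inside the gene.
Pgap1: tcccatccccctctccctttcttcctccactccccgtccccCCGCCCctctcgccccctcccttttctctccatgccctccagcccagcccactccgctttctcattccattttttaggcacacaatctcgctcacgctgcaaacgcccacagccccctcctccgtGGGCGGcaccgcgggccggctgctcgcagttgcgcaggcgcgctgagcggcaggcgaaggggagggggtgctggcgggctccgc
Ptprj: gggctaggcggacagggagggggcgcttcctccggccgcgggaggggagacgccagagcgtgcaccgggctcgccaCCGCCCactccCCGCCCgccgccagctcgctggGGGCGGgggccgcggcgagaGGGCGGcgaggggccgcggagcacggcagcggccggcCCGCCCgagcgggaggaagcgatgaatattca

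Over the 250 bases before the RefSeq start, Pgap1 had 2 GC boxes, beginning 209 and 84 bases before the start, and Ptprj had 5, at 174, 163, 141, 121 and 84 bases. Polg, the other gene matched in the RefSeq table, had 2 that overlap each other, at 14 and 10 bases, and an ETS site (CCGGAAGT) at 38 bases. GENCODE places all of these Polg sites inside the gene. Of 32851 such windows 32.7% held a GC box and 2.88% that ETS site. GC content was 68.8% for Pgap1, 79.2% for Ptprj and 58.0% for Polg, against a median of 52.4%. None of the 3 windows held, on either strand, the clock E-box CACGTG (6.02% of all windows), the D-box TTATGTAA (0.819%), CCAAT (33.8%) or the PU.1 core GAGGAAGT (2.44%). Spon2, Angptl4 and Foxs1 are named only.

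The fitted changes put numbers on both patterns. In the combination against anti-PD-1, edgeR gave -1.09 on the log2 scale for Spon2 (SE 0.17), -1.07 for Foxs1 (SE 0.22), -0.89 for Angptl4 (SE 0.16), -0.39 for Polg (SE 0.08), 0.77 for Pgap1 (SE 0.16) and 1.11 for Ptprj (SE 0.19). In that comparison 69 of 13726 genes, 0.503%, passed an adjusted p of 0.05, and the rule itself places all 6 genes among them. Of all genes, 13 were called in each of the 33 fits that left out 1 tumour. Just inside the limit was Pgap1, whose largest adjusted p over those fits was 0.0412, and just outside were Alpk1, Rbl2 and Nrn1 at 0.0510. Adamts4, a matrix protease that is not among the 6 genes, was also inside at 0.0405.

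Against vehicle, anti-PD-1 alone gave 1.24 for Spon2 (SE 0.21), 0.93 for Foxs1 (SE 0.26) and 0.56 for Angptl4 (SE 0.19). It gave -0.00 for Polg (SE 0.09), -0.17 for Pgap1 (SE 0.19) and -0.33 for Ptprj (SE 0.22). The combination against vehicle gave 0.15 for Spon2 (SE 0.20), -0.14 for Foxs1 (SE 0.26) and -0.33 for Angptl4 (SE 0.19), each within 2 SE of 0. It gave -0.39 for Polg (SE 0.09), 0.60 for Pgap1 (SE 0.19) and 0.78 for Ptprj (SE 0.23). Because the anti-PD-1 or the combination tumours enter both these and the choosing contrast, they carry no test here.

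**Figure D2:**
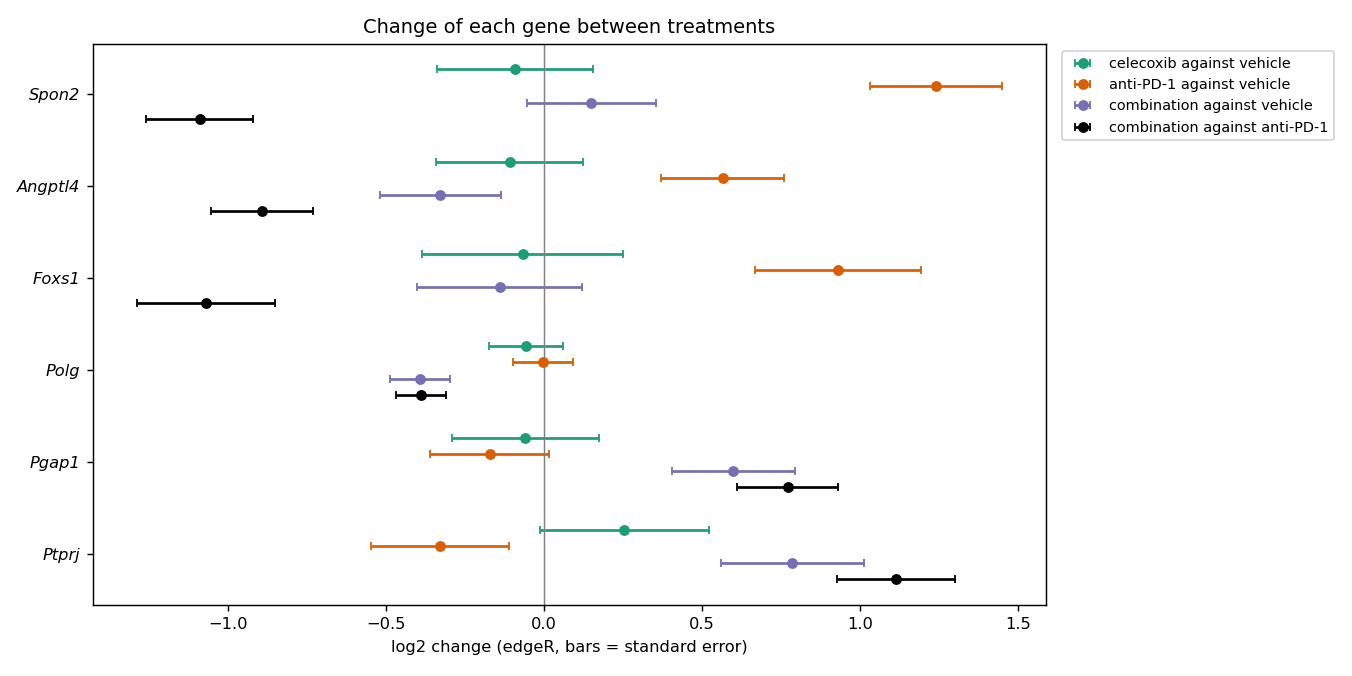
Fitted log2 changes of the 6 genes with standard errors for 4 comparisons between treatments. In anti-PD-1 against vehicle the points of Spon2, Angptl4 and Foxs1 are at 1.24, 0.56 and 0.93, and in the combination against vehicle those of Polg, Pgap1 and Ptprj are at -0.39, 0.60 and 0.78; none of these carries a test.

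Celecoxib alone, a comparison that shares no tumour with the choice of genes, changed none of the 6 past the threshold. Ptprj differed by 0.25 (SE 0.27) on the log2 scale, Angptl4 by -0.11 (SE 0.23), Spon2 by -0.09 (SE 0.25), Foxs1 by -0.07 (SE 0.32), Pgap1 by -0.06 (SE 0.23) and Polg by -0.06 (SE 0.12), each with an edgeR adjusted p of 0.9999. Across all genes 0 of 13726 (0%) were called by edgeR while 314 genes fell under 0.05 before adjustment. Limma-voom called 0 genes, DESeq2 called 7, and edgeR without the low-count filter called 49. The signs of 5 of these 6 small differences turned when single tumours were left out, so they carry no direction.

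Spon2 was lower in R than in NR tumours under anti-PD-1, without passing the adjusted threshold. The 4 R tumours had 35.0, 44.6, 47.2 and 58.4 CPM, and the 13 NR tumours ranged from 59.6 to 120 CPM with a median of 74.5. The 2 sets did not overlap, but the share of all genes that separate these sets as fully was not counted. The log2 difference was -0.82 (SE 0.27; edgeR unadjusted p = 0.0038, adjusted p = 0.684), in a comparison where 0 of 14247 genes (0%) were called by edgeR, limma-voom or DESeq2 while 923 fell under 0.05 before adjustment. Under the combination Spon2 differed by -0.23 between R and NR (SE 0.26, edgeR adjusted p = 0.785), with NR tumours at 29.6, 36.3, 38.1 and 49.2 CPM inside the R range of 14.3 to 55.1 CPM. The difference between these 2 changes was 0.58 (SE 0.37, edgeR adjusted p = 0.9993).

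Pgap1 and Ptprj tended the other way within the combination. The 4 NR tumours had 19.4, 19.6, 20.1 and 21.1 CPM of Pgap1, against 15.1 to 55.7 CPM in the 12 R tumours (median 27.3). The log2 difference was 0.63 (SE 0.26, edgeR adjusted p = 0.479). Ptprj was at 7.15, 11.3, 11.5 and 11.6 CPM in NR tumours and at 5.08 to 31.8 CPM in R tumours, a log2 difference of 0.57 (SE 0.30, edgeR adjusted p = 0.557). R tumours thus lay on both sides of the NR tumours for each gene. In this comparison edgeR and limma-voom called 0 of 14247 genes (0%), 1298 fell under 0.05 before adjustment, and DESeq2 called 17.

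Under anti-PD-1 Pgap1 differed by -0.34 (SE 0.25) and Ptprj by 0.35 (SE 0.29) between R and NR, with edgeR adjusted p-values of 0.898 and 0.928. For Pgap1 the change between R and NR differed between the 2 treatments by 0.98 (SE 0.36; edgeR unadjusted p = 0.00932, adjusted p = 0.9993); edgeR called 0 of 14247 genes (0%) on that difference, 329 fell under 0.05 before adjustment, and DESeq2 called 2. Angptl4, Foxs1 and Polg differed between R and NR by -0.42 (SE 0.27), 0.34 (SE 0.34) and -0.16 (SE 0.13) under anti-PD-1. Under the combination they differed by -0.09 (SE 0.26), 0.22 (SE 0.37) and 0.13 (SE 0.13), and no edgeR adjusted p of these 6 was under 0.77.

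Since R tumours were more common in the combination, the choosing contrast was also described within each mark. Among NR tumours (4 against 13) the combination against anti-PD-1 change was -1.08 for Spon2 (SE 0.27), -0.92 for Angptl4 (SE 0.28), -1.16 for Foxs1 (SE 0.38) and -0.53 for Polg (SE 0.14). In R tumours (12 against 4) it was -0.50 (SE 0.25), -0.59 (SE 0.26), -1.27 (SE 0.34) and -0.24 (SE 0.13). Pgap1 differed by 0.19 (SE 0.24) among NR and 1.17 (SE 0.27) among R, and Ptprj by 0.75 (SE 0.28) and 0.97 (SE 0.31). These values come from the tumours that chose the genes and are a description. Over all genes 0.0281% were called among NR and 0% among R.

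To see which cells and programmes each gene followed, its slope on the mean log2 CPM of 22 marker lists was fitted across 49 tumours with treatment as a term, so that only differences between tumours of the same treatment count. Slopes are log2 changes per 1 SD of the list mean within treatments, and p-values are edgeR's, adjusted over all 13726 genes for each list. Many genes follow the immune lists: 35.8% of all genes were called for T cells, 36.6% for cytotoxic lymphocytes, 35.9% for macrophages, 30.6% for B cells, 27.5% for dendritic cells, 28.9% for mast cells, 19.2% for neutrophils and 29.4% for the interferon-gamma response. A call on 1 of these lists is thus common, and the lists share the same 49 libraries. Structural and other lists were followed by fewer genes: 6.21% for epithelium, 13.5% for fibroblasts, 2.67% for smooth muscle, 1.71% for endothelium, 1.22% for skeletal muscle, 2.23% for adipocytes and 8.83% for glucocorticoid targets.

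Pgap1 rose with 8 lists and fell with 1. Its slope was 0.33 on T cells (SE 0.05, edgeR adjusted p = 6.24e-08), 0.32 on dendritic cells (SE 0.05) and 0.31 on B cells (SE 0.05), followed by macrophages, neutrophils, cytotoxic lymphocytes, the interferon-gamma response and mast cells. Its slope on proliferation was -0.24 (SE 0.06, edgeR adjusted p = 0.00346), a list for which 26.1% of genes were called. After treatment means were removed, Pgap1 correlated with the T cell list mean at Pearson r = 0.715 and Spearman rho = 0.693 over 49 tumours. Without the 2 tumours whose T cell list mean lay farthest from the average of their treatment, r was also 0.715. Within treatments r was 0.524 in vehicle, 0.493 in celecoxib, 0.696 in anti-PD-1 and 0.804 in the combination. None of the 5 structural lists (epithelium, fibroblasts, pericytes, smooth muscle, endothelium) was called for Pgap1.

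Ptprj also rose with 8 lists and fell with 1. Its steepest slope was negative, -0.33 on proliferation (SE 0.06, edgeR adjusted p = 0.000104). It rose by 0.31 on the interferon-gamma response (SE 0.06), 0.31 on T cells (SE 0.07), 0.30 on dendritic cells (SE 0.06) and 0.29 on B cells (SE 0.07), and also with cytotoxic lymphocytes, neutrophils, macrophages and PPAR targets (8.77% of genes called for the last). The relation to dendritic cells was uneven between treatments: r was 0.873 in the combination, 0.253 in anti-PD-1, 0.375 in celecoxib and 0.172 in vehicle. The other called immune cell lists were uneven too. For them r lay between -0.242 (macrophages) and 0.025 (B cells) in vehicle, and between 0.662 (macrophages) and 0.772 (B cells) in the combination. In celecoxib r lay between 0.461 (B cells) and 0.632 (cytotoxic lymphocytes), and in anti-PD-1 between 0.165 (macrophages) and 0.493 (B cells). Its slope on endothelium, a cell type known for Ptprj, was -0.00 (SE 0.08), and r with the endothelial gene Pecam1 ranged from -0.488 in celecoxib to 0.68 in the combination.

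Foxs1 followed the immune lists in the opposite direction. It fell with 7 of them, by -0.36 on cytotoxic lymphocytes (SE 0.07, edgeR adjusted p = 7.4e-05), -0.34 on macrophages (SE 0.07), -0.31 on B cells, mast cells and T cells (SE 0.08 each), -0.28 on the interferon-gamma response (SE 0.08) and -0.23 on dendritic cells (SE 0.08). Foxs1 rose with hypoxia and glycolysis genes by 0.31 (SE 0.07, edgeR adjusted p = 0.00096), for which 25.8% of genes were called. Its slope on pericytes, the cells it is known from, was 0.12 (SE 0.08, edgeR adjusted p = 0.542), against 2.29% of genes called. Foxs1 had larger slopes on fibroblasts, 0.22 (SE 0.09, edgeR adjusted p = 0.0781), and epithelium, 0.24 (SE 0.09, edgeR adjusted p = 0.122), also not called. On smooth muscle its slope was 0.11 (SE 0.09) and on endothelium 0.02 (SE 0.08). The centred r of Foxs1 with the pericyte list mean was 0.27 (Spearman rho 0.346), from -0.105 in vehicle to 0.691 in celecoxib. With single pericyte genes, named after their values were seen, its centred r was -0.097 for Pdgfrb, 0.128 for Rgs5 and -0.002 for Kcnj8. In the same order r was 0.845, 0.76 and 0.839 within celecoxib, and -0.308, -0.346 and -0.311 within vehicle. The pericyte list itself was lower in the combination than with anti-PD-1 in 11 of 11 tested genes (median -0.53), none of them called. The other structural lists were mostly lower too. Only 1 of 15 fibroblast, 2 of 18 endothelial, 1 of 6 epithelial and 2 of 7 smooth muscle genes had a change above 0, and 1 endothelial gene was called lower. The part of these lists in the Foxs1 difference was not tested.

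**Figure D3:**
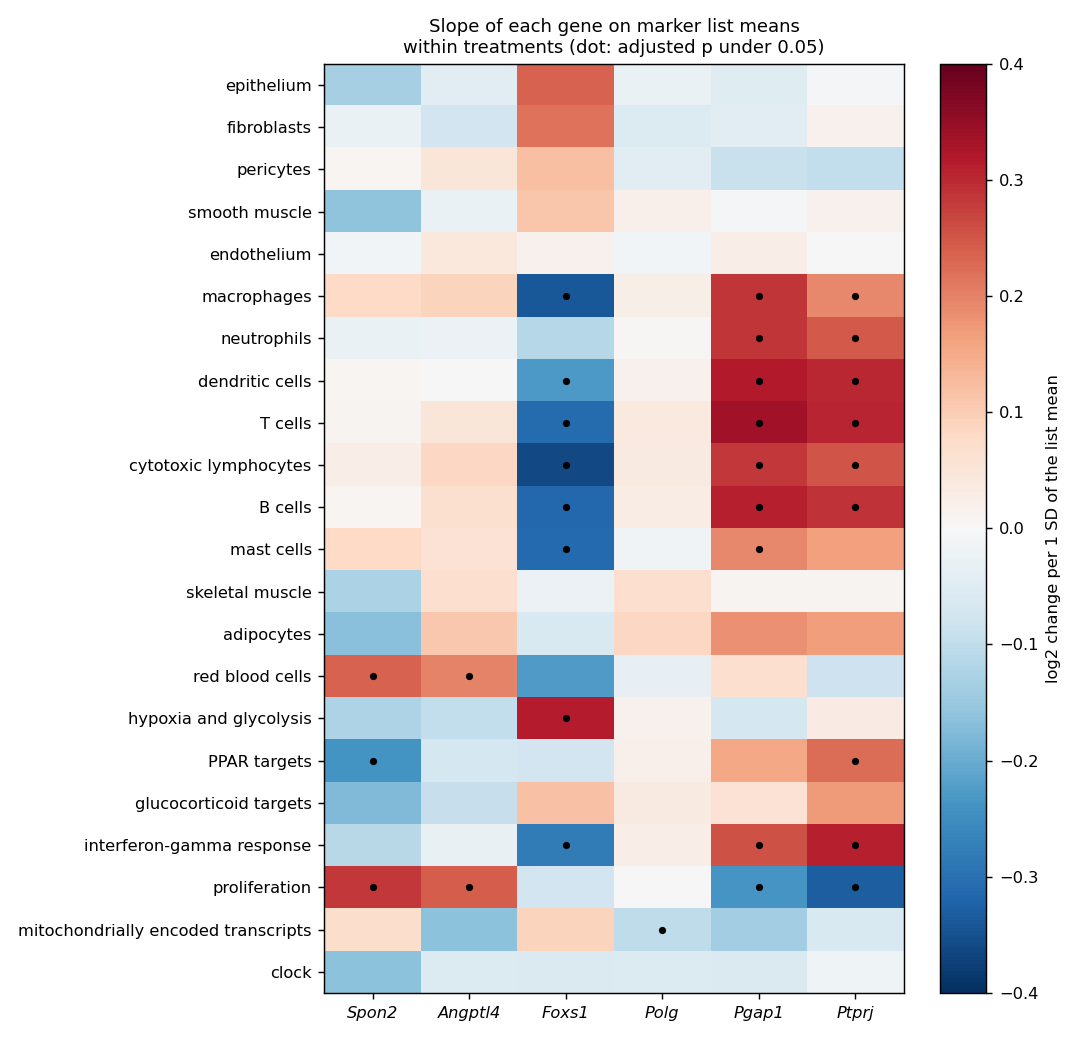
Slopes of the 6 genes (columns) on the means of 22 marker lists (rows), in log2 change per 1 SD of the list mean with treatment as a term; dots mark edgeR adjusted p-values under 0.05. Pgap1 and Ptprj are positive on T, B, dendritic and cytotoxic cell lists where Foxs1 is negative, and Polg has a single dot.

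Spon2 and Angptl4 followed proliferation genes and no immune cell list. Spon2 rose by 0.28 on proliferation (SE 0.07, edgeR adjusted p = 0.00179) and 0.24 on red blood cell genes (SE 0.06, edgeR adjusted p = 0.0111; 11.5% of genes called), and fell by -0.24 on PPAR targets (SE 0.07, edgeR adjusted p = 0.0246). Its slope on fibroblasts, cells that make matrix, was -0.03 (SE 0.07). Angptl4 rose by 0.24 on proliferation (SE 0.06, edgeR adjusted p = 0.00323) and 0.20 on red blood cells (SE 0.07, edgeR adjusted p = 0.0488). Although Angptl4 is a known PPAR target, its slope on the other PPAR targets was -0.07 (SE 0.07), and on hypoxia and glycolysis it was also not called.

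These relations of Spon2 were less stable than those of Pgap1. The combination tumour lowest for proliferation (list mean 5.30, when every other tumour was above 6) was among the 13 libraries with muscle, skin or fat. Without those 13 libraries Spon2 had 0 called lists, with a slope of 0.13 on proliferation (SE 0.07, edgeR adjusted p = 0.208), and Angptl4 had 1. Pgap1 kept all 9 of its called slopes without them. Ptprj lost macrophages (0.17, SE 0.08, edgeR adjusted p = 0.102) and PPAR targets (0.13, SE 0.09, edgeR adjusted p = 0.676), and Foxs1 lost dendritic cells (-0.18, SE 0.10, edgeR adjusted p = 0.251) and the interferon-gamma response (-0.22, SE 0.10, edgeR adjusted p = 0.101). For Spon2 and proliferation, r was 0.548 over 49 tumours and 0.375 without the 2 tumours farthest from the average of their treatment. For Angptl4 it was 0.530 and 0.532.

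Polg followed no cell type list. Its only called slope was -0.10 on the mitochondrially encoded transcripts (SE 0.03, edgeR adjusted p = 0.0100), for which 29.9% of all genes were called. Tumours with more mitochondrially encoded RNA thus had less Polg, with r = -0.681 in the combination, -0.635 in celecoxib, -0.228 in anti-PD-1 and -0.083 in vehicle. The 7 tested mitochondrial transcripts had a median log2 change of 0.48 in the combination against anti-PD-1, 1 of them called. With that list mean as a further term the Polg change was -0.31 (SE 0.08), against -0.39 without it.

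**Figure D4:**
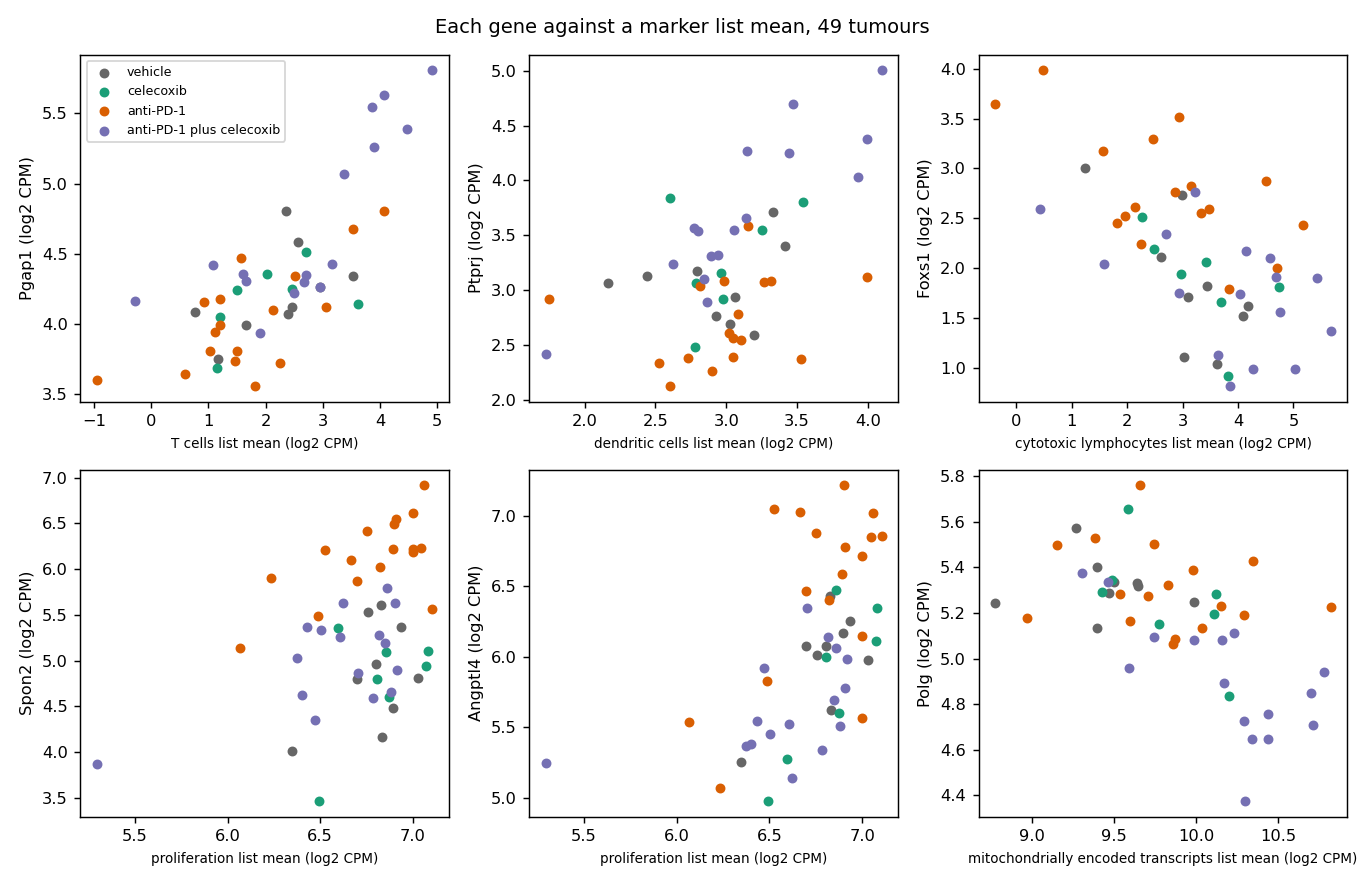
Each gene (log2 CPM, vertical) against the mean log2 CPM of a marker list (horizontal) in 49 tumours coloured by treatment. Pgap1 climbs with the T cell mean (centred r = 0.715) and Foxs1 declines with the cytotoxic lymphocyte mean (centred r = -0.579), while 1 combination tumour sits far left on the proliferation axis.

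Across the 6 genes themselves, after treatment means were removed, Pgap1 and Ptprj correlated at r = 0.613 over 49 tumours, 0.333 within anti-PD-1 and 0.743 within the combination. Spon2 and Angptl4 correlated at 0.482 and Angptl4 and Polg at 0.460. Spon2 and Ptprj ran opposite at -0.416, and Foxs1 had no r beyond 0.302 in size with any of the others. The 6 genes therefore do not form a single coordinated set across tumours of the same treatment.

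The genes most like each one were listed by the same centred r over 49 tumours among 11300 genes. Pgap1 was most like Cers6, a ceramide synthase (0.821), with Gramd1b, Slc43a2 and N4bp2l1 also on its list. The list of Ptprj included N4bp1 (0.761), Shtn1, Nfkbia, an inhibitor of NF-kappa-B (0.749), and Vrk2, and its r with Csf1r, the receptor that macrophages depend on, was 0.226. Angptl4 was most like Ppan, a ribosome assembly factor (0.853), then Umps, an enzyme of pyrimidine synthesis (0.834), Mcat, Pcbd2 and Fnta. Polg was most like Hgs (0.771), Clpp, a mitochondrial protease subunit (0.740), Hsdl1, Cdipt and Tars2, the mitochondrial threonyl-tRNA synthetase (0.683). Spon2 was most like Sssca1 (0.713), Ptrhd1, Tmem119, Eif4a3 and Sec22a, and Foxs1 was most like Slc41a2 (0.706), Gpc1, a glypican (0.702), Aes, Col5a3, a fibrillar collagen (0.678), and Kdelr3.

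Relatives of each gene were counted in the combination against anti-PD-1, where the median over all genes was -0.00, 0.335% of all genes rose and 0.168% fell. Of 16 spondins, matricellular proteins and matrix proteases set beside Spon2, 3 fell and 0 rose (median -0.28): Mmp3 by -0.86 (SE 0.19), Adam12 by -0.79 (SE 0.18) and Adamts4 by -0.78 (SE 0.16). Those 3 proteases were put on the list with their earlier results known, so the count is no independent evidence. Spon1, the closest relative of Spon2 by name, was at 13.9 ± 9.62 CPM with anti-PD-1 and 12.6 ± 3.56 in the combination (change -0.15, SE 0.23). Mmp3, like Spon2, had its highest mean with anti-PD-1 alone, with 16.3 ± 5.46 CPM under anti-PD-1 against 8.96 ± 3.26 under the combination, 10.8 ± 5.10 under celecoxib and 10.0 ± 3.25 in vehicle tumours.

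Of 12 angiopoietin-like proteins, lipases and their partners set beside Angptl4, 1 rose and 0 fell (median -0.08). The gene was Lpl, the lipoprotein lipase that the Angptl4 protein inhibits. Lpl ranged from 18.6 to 88.7 CPM with anti-PD-1 (median 39.5) and from 39.1 to 241 in the combination (median 78.5), a change of 1.12 (SE 0.27, edgeR adjusted p = 0.0372). It was at 54.2 ± 57.6 CPM in vehicle and 86.6 ± 12.6 with celecoxib (change 0.69, SE 0.38, edgeR adjusted p = 0.9999). Angptl4 and Lpl thus differed in opposite directions between the 2 groups, but across tumours of the same treatment their r was 0.010, from -0.769 in vehicle to 0.590 in celecoxib. Lpl is also made by fat and muscle; the vehicle tumour highest in fat transcripts and the muscle-bearing libraries are among the 13 named above, and their part in the Lpl value was not tested.

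Of 19 genes of mitochondrial DNA maintenance set beside Polg, 0 were called (median -0.10). Twnk, the helicase that works with the Polg polymerase, came nearest, at 21.95 ± 5.13 CPM with anti-PD-1 and 15.9 ± 4.37 in the combination (change -0.47, SE 0.14, edgeR adjusted p = 0.0794). Its centred r with Polg was 0.532. Tfam, which packages mitochondrial DNA, changed by -0.11 (SE 0.09), and Polg2, the accessory subunit, by -0.10 (SE 0.17).

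Of 28 GPI anchor genes set beside Pgap1, 1 rose and 0 fell (median 0.02). Pgap2, which acts later in the remodelling of the same anchor, was at 35.6 ± 7.25 CPM with anti-PD-1 and 48.0 ± 11.2 in the combination (change 0.43, SE 0.11, edgeR adjusted p = 0.0448), and its centred r with Pgap1 was 0.471. None of 20 other forkhead genes (median -0.11) and none of 11 other receptor-type phosphatases (median -0.10) was called. Among the phosphatases Ptprc, the pan-leukocyte CD45 gene, had a change of 0.76 (SE 0.30, edgeR adjusted p = 0.176). The smallest edgeR adjusted p among these 11 phosphatases was 0.1195 and belonged to another gene. In celecoxib against vehicle, anti-PD-1 against vehicle, both other combination contrasts and the R against NR contrasts none of the 6 families had a called gene; background shares were 0.0874% for anti-PD-1 against vehicle, 0.0729% for the combination against vehicle and 0.0364% for the combination against celecoxib.

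2 other measures moved with the choosing contrast. A clock measure, in which Arntl is subtracted from the average of its opposite-phase partners (Nr1d2, Per2, Per3, Tef and Dbp) in log2 CPM, was 3.62 ± 0.48 in vehicle, 3.74 ± 0.42 in celecoxib, 0.65 ± 0.62 in anti-PD-1 and 3.12 ± 0.98 in the combination, and all 16 tested T cell genes were higher in the combination than with anti-PD-1 (median 1.10, none called). With the clock measure as a further term the Spon2 change was -0.55 (SE 0.28) in place of -1.09, and the Polg change -0.20 (SE 0.14) in place of -0.39. With the same term Angptl4 was at -0.70 (SE 0.28), Foxs1 at -0.88 (SE 0.38), Pgap1 at 0.96 (SE 0.29) and Ptprj at 1.17 (SE 0.35), so Pgap1 and Ptprj did not move toward 0. With the T cell mean as a further term Pgap1 changed by 0.40 (SE 0.12) in place of 0.77, Ptprj by 0.76 (SE 0.17) in place of 1.11, and Foxs1 by -0.78 (SE 0.21) in place of -1.07. The other 3 genes were at -1.10 for Spon2 (SE 0.18), -0.93 for Angptl4 (SE 0.17) and -0.42 for Polg (SE 0.09). None of the 6 genes had a called slope on the clock measure within treatments (0.0146% of genes called) or on the log2 total count of the library (0% called). With 2 of 13726 genes called on the clock measure, a missing call there says little. Spon2 had the steepest of these 6 slopes, -0.16 (SE 0.07, edgeR unadjusted p = 0.0183, adjusted p = 0.671), and the others lay between -0.06 and -0.02. For Spon2 and the clock measure r was -0.66 in vehicle, -0.862 in celecoxib, -0.098 in anti-PD-1 and -0.383 in the combination. All 6 genes of the clock measure were themselves among the 13 called in each of the 33 fits of the choosing contrast. The measure is therefore drawn from the same contrast, and changes fitted with it are a description only. It lay between -0.66 and 1.72 in anti-PD-1 tumours and between 1.51 and 5.03 in combination tumours, so the groups overlapped little on it. Its part in these changes was not tested.

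**Figure D5:**
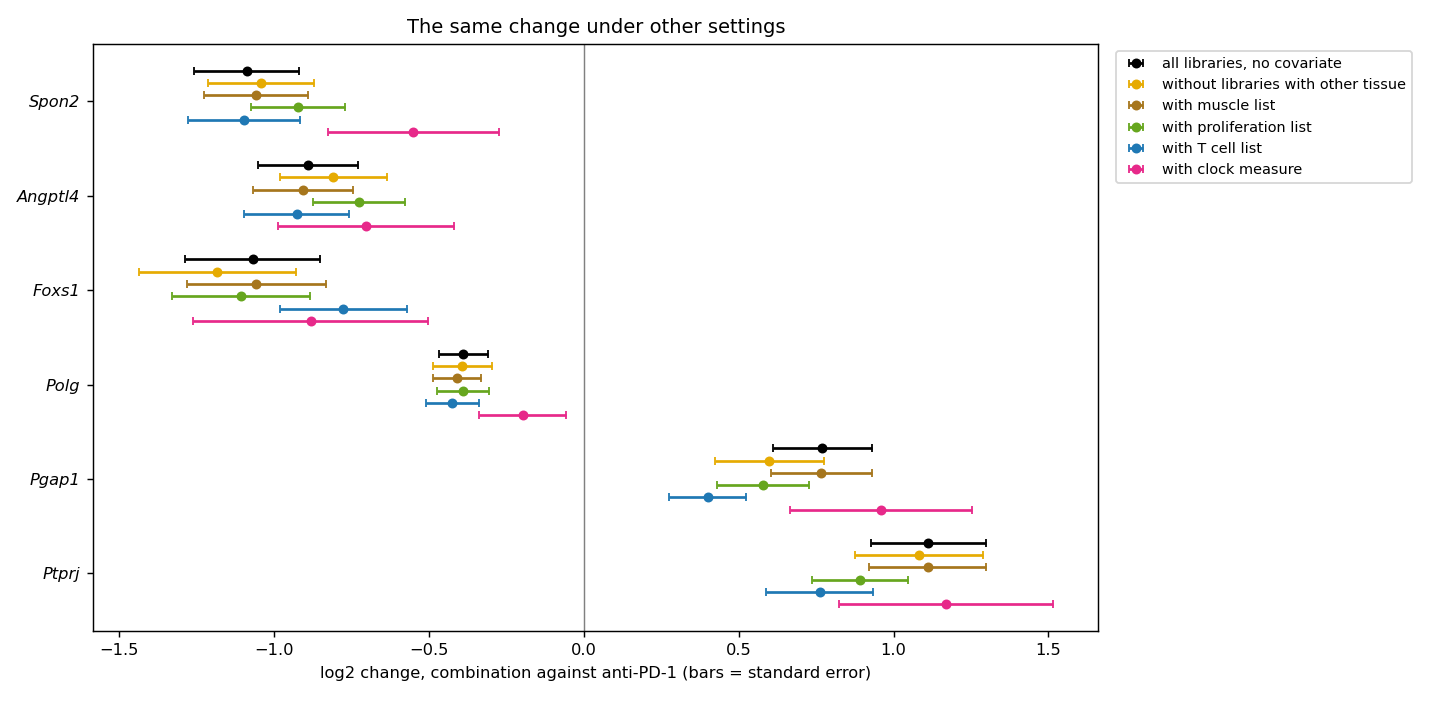
The combination against anti-PD-1 log2 change of each gene, with standard errors, under 6 settings. The clock measure moves Spon2 (from -1.09 to -0.55) and Polg (from -0.39 to -0.20) toward 0, the T cell list moves Pgap1 (from 0.77 to 0.40), and with the clock measure Pgap1 and Ptprj are at 0.96 and 1.17. The genes of the clock measure were called in this same contrast, so these values are a description.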

How the data were processed

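Bulk 3′ mRNA libraries (QuantSeq FWD) of 49 CT26 tumours were used. The authors deposited whole-number read counts per gene, and a table of log2 values that equals log2(count + 0.5) minus a constant per library and was not tested. The submitters' processing notes name bcl2fastq, STAR, featureCounts and limma and the mm10 (GRCm38) build; the sources used here give neither versions nor the strand setting. No 2 libraries held identical values.

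Counts were fitted with edgeR 4.0.16 (R 4.3.3; TMM, filterByExpr, robust quasi-likelihood test, Benjamini-Hochberg adjustment over all genes tested), in 1 fit of 4 treatments (13726 genes) and 1 of 6 groups of treatment and R or NR (14247 genes). A list mean averages log2 CPM (prior count 2) over at least 4 tested genes; skin epithelium had 3 and was not fitted. Standard errors are the change divided by the square root of F. Correlations used log2 CPM with treatment means removed. The 5 most alike genes were taken among genes of at least 2 CPM, without predicted genes and receptor segments; 2 of these genes are not reported here. Named genes are the 6 genes, those 5, and family genes that were called or stand next to a gene in its pathway; Csf1r, Pecam1, Ptprc and the pericyte genes were named after their values were seen. The scripts were tested on simulated data. DESeq2 1.42.0 and limma-voom (limma 3.58.1) were alternatives. The 6 genes and the lists were chosen with earlier results of these data known. Sequences are RefSeq promoter windows, matched by symbol for 3 of 6 genes; gene positions are from GENCODE.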

Additional observations from a re-analysis of the deposited data

Results flagged for a closer look

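In 24 groups of 4 to 10 tumours (6 genes in 4 groups), 2 had a tumour apart from the rest by Dixon's criterion, which chance alone meets in about 1 of 20 groups. Spon2 in celecoxib replicate 3 was 3.47 on the log2 CPM scale, with the next tumour at 4.61 (10.8 against 24.1 CPM, n = 7). That library also had a skeletal muscle mean of 7.04 and a skin mean of 7.13, so its Spon2 value comes with other tissue, whose part was not tested. Ptprj in anti-PD-1 plus celecoxib NR replicate 12 was 2.89, with the next NR tumour at 3.54 (7.15 against 11.3 CPM, n = 4), while the other 3 NR tumours lay within 11.3 to 11.6 CPM.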

How the results depend on the processing

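Without the 13 libraries with muscle, skin or fat, Spon2 had 0 called lists in place of 3 and Angptl4 1 in place of 2, and 2 small differences turned: celecoxib against vehicle for Foxs1 to 0.0493 and R against NR under the combination for Spon2 to 0.0922. Without the low-count filter Angptl4 had 1 called list, and with z-scored list means Polg had 0 in place of 1. Single slopes lost their call with z-scored means for Spon2 and Ptprj on PPAR targets (edgeR adjusted p = 0.0716 and 0.0962) and Foxs1 on dendritic cells (0.123), and without the filter for Ptprj on macrophages (0.0619). Limma-voom turned the Foxs1 difference between R and NR under anti-PD-1 to -0.0851, and the difference of its R against NR changes to 0.18. The clock measure as a term, chosen after seeing the data, brought Spon2 in the combination against anti-PD-1 to -0.55.

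Leaving out each tumour in turn, celecoxib against vehicle ran from -0.197 to 0.0520 for Spon2, -0.237 to 0.00362 for Angptl4, -0.186 to 0.145 for Foxs1, -0.139 to 0.00500 for Polg and -0.123 to 0.0402 for Pgap1. R against NR ran from -0.0790 to 0.627 for Foxs1 under anti-PD-1 and from -0.168 to 0.00152 for Angptl4 under the combination, and the difference of the Foxs1 changes from -0.402 to 0.304. The count of genes called in the combination against anti-PD-1, 69 in the main analysis, was 297 with DESeq2, 152 with the muscle list as a term, 38 with the T cell list, 33 with limma-voom, 22 without the filter, 19 with only the 2 groups, 16 with the proliferation list, 10 without the 13 libraries and 0 with the clock measure, and ran from 13 without combination replicate 16 to 449 without combination replicate 15. No paired analysis was possible because replicate numbers follow accession order and pair no tumours.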
